A study of Danio rerio with 26 samples.

Results

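The Period genes are 4 of the 32105 Ensembl genes counted in the skin of 26 male zebrafish, and they were taken by identifier: the PER1 copies ENSDARG00000012499 and ENSDARG00000056885, PER2 (ENSDARG00000034503) and PER3 (ENSDARG00000010519). Both PER1 identifiers carry the same symbol in the gene name table, so they are called the PER1 major copy and the PER1 minor copy here, after their levels in these fish. All 4 genes were detected in all 26 fish and passed the filter on low counts in each comparison. Their counts ran from 30, for the PER1 minor copy in 1 fish, to 5597 for PER2, which carries a Poisson counting error of 18.3% at the lowest and 1.34% at the highest.

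Period proteins are repressors of the circadian clock. The CLOCK and BMAL proteins switch on Period and cryptochrome genes, and the Period and cryptochrome proteins return to the nucleus and shut that transcription down again, so that their messenger RNAs rise and fall over the day. In zebrafish, peripheral tissues such as skin hold clocks that light can set directly, and PER2 is known as a gene that light induces, while PER1 and PER3 transcripts are known to cycle with the clock.

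Each library came from the skin of 1 fish, and all the fish had been given rotenone, an inhibitor of mitochondrial complex I. The 8 fish of 3 years were of the strain AB JxTu Tg(flk:mCherry), which carries mCherry under the flk promoter of vascular endothelium, and had 37.5 nM rotenone. The fish of 1 year were of the strain AB JxTu, and 9 had 37.5 nM and 9 had 3.75 nM. Age and strain label therefore cannot be told apart, untreated fish were not analysed here, and neither the hour of sampling nor the length of treatment is given in the sources used here. The 3.75 nM fish were also deposited in a count table of their own, so that concentration and table cannot be told apart. In each group the fish numbers in the titles fall into runs, which the labels do not explain. The high run is 189 to 202 (14 fish) and the low run 164 to 181 (12 fish). Replicates 1 to 4 of each group are the low run. Inside a run each group fills its own block of numbers, and the 3.75 nM fish come first in both runs. Group and number order therefore cannot be told apart within a run, and for the concentration this holds in both runs alike.

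Libraries held 25454674 to 35162246 counts. The skin label was checked with keratinocyte genes: all 8 of 8 listed were detected in every fish. They had a summed level of 19345 to 57872 CPM (counts scaled to a common library size) in the 3-year fish, 27638 to 46237 CPM in the 1-year fish at 37.5 nM and 23664 to 52855 CPM in the 1-year fish at 3.75 nM. Skeletal muscle genes (10 of 14 measured) summed to 3486 to 39961 CPM, 2205 to 16387 CPM and 2663 to 28100 CPM in the same groups, with none at 0. The 39961 CPM of muscle and the 19345 CPM of keratinocyte genes came from 1 fish, replicate 3 of the 3-year fish. All libraries are of whole tissue, in which fewer cells of a type and less RNA per cell cannot be told apart.

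PER2 was the most abundant Period transcript and the PER1 minor copy the least in all 26 fish, once CPM was divided by gene length. The lengths, recovered from the deposited tables, were about 6.69 kb for the PER1 major copy, 6.23 kb for the PER1 minor copy, 5.58 kb for PER2 and 11.4 kb for PER3. The level per length of PER2 averaged 16.1 ± 4.27 CPM per kb in the 3-year fish (SD, n = 8), 23.3 ± 6.40 in the 1-year fish at 37.5 nM (n = 9) and 23.9 ± 4.73 in the 1-year fish at 3.75 nM (n = 9). That of the PER1 minor copy averaged 0.492 ± 0.192 CPM per kb in the 3-year fish, 0.747 ± 0.314 in the 1-year fish at 37.5 nM and 1.43 ± 0.383 in those at 3.75 nM. PER3 averaged 2.07 ± 0.821 CPM per kb in the 3-year fish, 3.29 ± 1.21 in the 1-year fish at 37.5 nM and 5.17 ± 1.06 in those at 3.75 nM. For the PER1 major copy the averages were 1.84 ± 0.472 CPM per kb in the 3-year fish, 2.56 ± 0.687 in the 1-year fish at 37.5 nM and 7.21 ± 2.83 in those at 3.75 nM. The order of these middle genes was not fixed: PER3 stood above the PER1 major copy in 15 fish and below it in 11. This split rests on approximate lengths, and fish with nearly equal levels per length could fall on either side.

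PER2 made up most of the Period message per length, with the lowest median share at 3.75 nM. Its share of the summed CPM per kb of the 4 genes had a lowest value, median and highest value of 65.3%, 79.7% and 83.8% in the 3-year fish. The values were 63.1%, 79.9% and 86.4% in the 1-year fish at 37.5 nM, and 42.0%, 63.9% and 73.8% in the 1-year fish at 3.75 nM, so that the groups overlapped. The share of the PER1 major copy had a lowest value, median and highest value of 6.84%, 8.34% and 12.8% in the 3-year fish, 4.57%, 9.30% and 15.1% in the 1-year fish at 37.5 nM and 10.8%, 19.8% and 35.1% in the 1-year fish at 3.75 nM. These shares are descriptions without a test, and the lengths behind them are approximate.

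**Figure D1:**
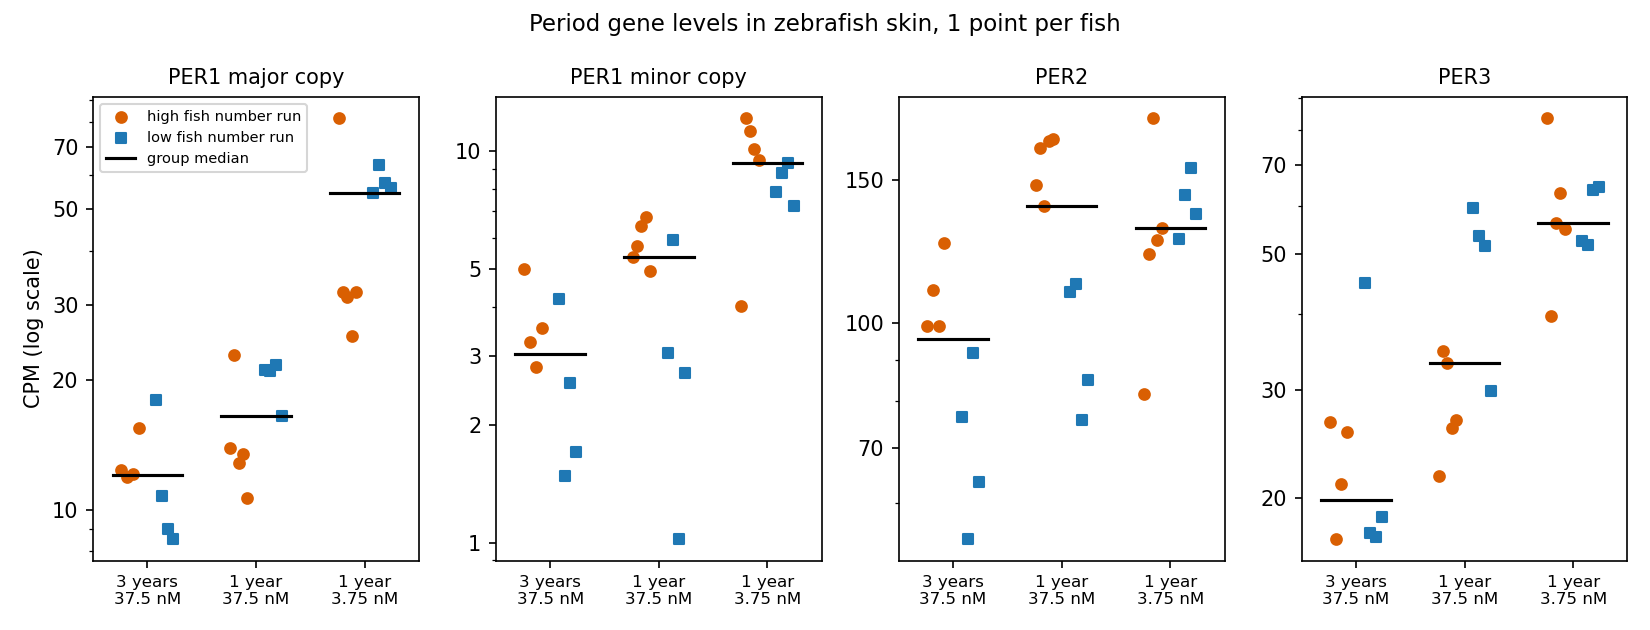
CPM of each Period gene on a log axis, with 1 point per fish, the 3 groups from left to right and a bar at each group median; circles are the high and squares the low fish number run. The 9 fish at 3.75 nM lie above all other fish for the PER1 major copy (25.4 CPM and more), while for PER2 the 1-year groups share 1 range and the runs separate at 37.5 nM.

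The PER1 major copy was lower in 1-year fish at 37.5 nM than at 3.75 nM, and it is the Period gene that passed the test in this comparison. Its lowest, median and highest levels were 10.7, 16.6 and 22.9 CPM at 37.5 nM, against 25.4, 54.6 and 81.7 CPM at 3.75 nM. Every fish at 37.5 nM lay below every fish at 3.75 nM. Of the 18793 genes tested 0.0319%, 6 in number, had groups that did not overlap in this direction. It averaged 17.1 ± 4.59 CPM at 37.5 nM and 48.2 ± 18.9 CPM at 3.75 nM (SD, n = 9 each). This is a log2 fold change of -1.49 ± 0.22 (SE; edgeR quasi-likelihood test, Benjamini-Hochberg adjusted p = 0.0176 over all genes tested), or 2.82-fold lower. In this comparison 3% of all genes tested were called lower and 4.28% called in either direction. The call was lost, at -1.45 and an adjusted p of 0.0511, without replicate 7 of the 37.5 nM fish, and at -1.47 and 0.0506 without replicate 1 of the 3.75 nM fish. On leaving out either of those fish the count of genes called over the whole table was 0 (3885 and 3738 genes at an unadjusted p under 0.05), against 804 with all fish.

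Both the PER1 minor copy and PER3 were lower in most pairs of fish but did not pass. The lowest, median and highest levels of the PER1 minor copy were 1.02, 5.34 and 6.79 CPM at 37.5 nM, against 4.01, 9.32 and 12.2 CPM at 3.75 nM. The groups overlapped, although a fish at 37.5 nM was below a fish at 3.75 nM in 92.6% of the 81 pairs. Its log2 fold change was -0.94 ± 0.28 (edgeR adjusted p = 0.0602), and it passed under 4 of 9 other settings, with adjusted p-values from 0.0136 to 0.946 over them. With the run as a term in the model it was -0.998 (edgeR adjusted p = 0.0302, with 7.59% of all genes called). PER3 had a lowest level of 21.8 CPM, a median of 33.2 and a highest of 59.5 at 37.5 nM, against 39.7, 56.3 and 83.7 CPM at 3.75 nM. Its groups overlapped as well, with the 37.5 nM fish below in 88.9% of pairs. The log2 fold change of PER3 was -0.66 ± 0.19 (edgeR adjusted p = 0.0536), and 3 of 9 other settings called it, with adjusted p-values from 0.0143 to 0.540. The run term gave -0.71 (edgeR adjusted p = 0.0252), so that it changed both calls. At an unadjusted p under 0.05, which both genes met, 13.6% of all genes tested were lower.

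PER2, the light-induced member, did not differ between the concentrations beyond the spread between fish. Its lowest, median and highest levels were 75.8, 139.4 and 168.2 CPM in 1-year fish at 37.5 nM, against 81.6, 131.0 and 179.0 CPM at 3.75 nM. The groups covered nearly the same range, and 50.6% of the pairs had the 37.5 nM fish lower. The log2 fold change was -0.04 ± 0.17 (edgeR adjusted p = 0.914), with a 95% interval from -0.39 to 0.31.

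The concentration difference of PER2 passed in the low run and not in the high run, while the difference between the runs itself did not pass. In the low run PER2 was lower at 37.5 nM, with 109.2, 111.5, 75.8 and 85.0 CPM at 37.5 nM against 127.0, 143.8, 155.0 and 136.2 CPM at 3.75 nM. The log2 fold change there was -0.56 ± 0.13 (edgeR adjusted p = 0.0142 within the run, where 26.7% of all genes tested were called). In the high run the levels were 147.8, 164.3, 139.4, 167.7 and 168.2 CPM at 37.5 nM against 81.6, 121.3, 179.0, 126.4 and 131.0 CPM at 3.75 nM (0.29 ± 0.18, adjusted p = 0.957). The groups did not overlap in the low run, as for 14.1% of all genes in this direction, and overlapped in the high run. The test of the difference between the runs itself gave 0.86 ± 0.25 on the log2 scale and did not pass (high minus low run, edgeR adjusted p = 0.0621, with 2.29% of all genes called). DESeq2 gave 0.85 with an adjusted p of 0.0249, and it called 1258 genes here, against 470 by edgeR. DESeq2 was the 1 of 4 other settings that called PER2 in this test. PER3 differed between the concentrations by -1.08 ± 0.20 in the high and by -0.26 ± 0.19 in the low run, with a run difference of -0.80 ± 0.37 (edgeR adjusted p = 0.243). In the PER1 minor copy the difference was -0.70 ± 0.27 in the high and -1.39 ± 0.42 in the low run, with a run difference of 0.70 ± 0.51 (adjusted p = 0.497). For the PER1 major copy it was -1.47 ± 0.34 in the high run and -1.52 ± 0.11 in the low run, and the difference of 0.07 ± 0.39 between them did not pass (adjusted p = 0.949, 95% interval -0.74 to 0.89). In the high run alone no gene of 18929 was called by edgeR between the concentrations, with 995 at an unadjusted p under 0.05, and the PER1 major copy had an adjusted p of 0.540 there.

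The 4 Period genes averaged lower in 3-year than in 1-year fish at 37.5 nM, but none passed the test, as against 1.27% of the 18935 genes tested that were called, 0.597% of them lower. The lowest, median and highest levels of the PER1 major copy were 8.53, 12.03 and 18.0 CPM in the 3-year fish, against 10.7, 16.6 and 22.9 CPM in the 1-year fish (log2 fold change -0.49 ± 0.18, edgeR adjusted p = 0.153). Those of the PER1 minor copy were 1.48, 3.03 and 4.997 CPM in the 3-year fish, against 1.02, 5.34 and 6.79 CPM in the 1-year fish (-0.61 ± 0.32, adjusted p = 0.288). For both copies the groups overlapped, with the 3-year fish below in 81.9% and 75.0% of the 72 pairs.

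PER2 had a lowest, median and highest level of 54.0, 95.4 and 125.4 CPM in the 3-year fish, against 75.8, 139.4 and 168.2 CPM in the 1-year fish. Its log2 fold change was -0.53 ± 0.19 (edgeR adjusted p = 0.144), and with the run as a term in the model it passed at -0.48 ± 0.11 (adjusted p = 0.0402, with 1.87% of all genes called). PER3 had 17.1, 19.8 and 44.8 CPM in the 3-year fish, against 21.8, 33.2 and 59.5 CPM in the 1-year fish (-0.67 ± 0.24, adjusted p = 0.139). The groups overlapped for both genes, and the highest 3-year level of PER3 was that of 1 fish, replicate 1. Without it PER3 passed at -0.87 (edgeR adjusted p = 0.0444, with 2.02% of all genes called). That fish is singled out because of its PER3 level, so this is no independent test. With each of the 17 fish left out in turn, PER3 passed in this 1 case, with values from -0.87 to -0.55. At an unadjusted p under 0.05, met by the PER1 major copy, PER2 and PER3, 8.91% of all genes tested were lower.

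Within the runs the age differences of the PER1 major copy were -0.20 ± 0.22 in the high and -0.79 ± 0.24 in the low run, and those of PER3 -0.35 ± 0.18 in the high and -0.98 ± 0.36 in the low run. PER2 had -0.55 ± 0.12 in the high and -0.40 ± 0.21 in the low run, and the PER1 minor copy -0.69 ± 0.20 in the high and -0.35 ± 0.53 in the low run. None of these within-run values passed, and neither did the difference between runs for any of the 4 genes (edgeR adjusted p = 0.423 to 0.858, with 0.0635% of all genes called). Muscle genes summed to 5258, 26661, 39961 and 7333 CPM in replicates 1 to 4, the low run of the 3-year fish. The part of muscle in the within-run values was not tested. Over both runs, a muscle marker term gave -0.43 for the PER1 major copy and -0.61 for PER3. It gave -0.51 for PER2 and -0.58 for the PER1 minor copy, and none passed (edgeR adjusted p = 0.192 to 0.360). The age and concentration comparisons use the same 9 fish of 1 year at 37.5 nM, so their fold changes are not independent of each other.

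**Figure D2:**
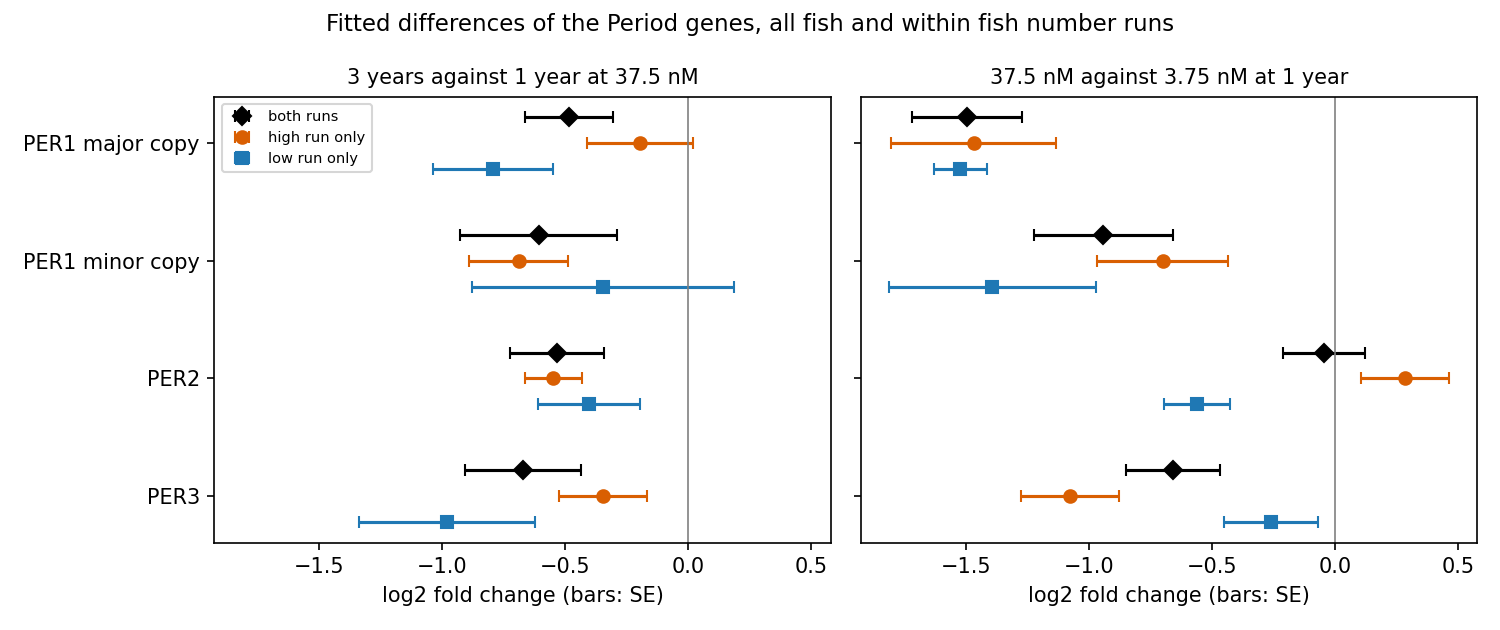
Log2 fold changes of the 4 Period genes (bars: SE) for 3 years against 1 year at 37.5 nM and for 37.5 nM against 3.75 nM at 1 year, over both fish number runs and within each. All 12 age values lie below 0; among the concentration values, PER2 in the high run (0.29) lies above 0, and the PER1 major copy stays between -1.47 and -1.52.

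PER2 was the Period gene that passed the test between the fish number runs. It averaged 132.9 ± 29.8 CPM in the 14 fish of the high run and 102.4 ± 33.0 CPM in the 12 of the low run, a log2 difference of 0.40 ± 0.10 averaged over the groups (edgeR adjusted p = 0.0129). In this comparison 8.97% of the 20482 genes tested were called higher and 16.9% called in either direction, so a call is common. The PER1 minor copy differed by 0.54 ± 0.21 (adjusted p = 0.0846), PER3 by -0.29 ± 0.15 (0.202) and the PER1 major copy by -0.26 ± 0.16 (0.275); none of these passed.

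At 37.5 nM the PER2 levels of the runs did not overlap in either age. The 3-year fish had 99.2, 109.8, 99.1 and 125.4 CPM in the high run, against 76.6, 54.0, 91.6 and 63.6 CPM in the low run. All 4 fish of the high run lay above all 4 of the low run, as did 3.43% of all genes, and the log2 difference of 0.60 ± 0.19 did not pass (edgeR adjusted p = 0.120; 0.918% of genes called). In the 1-year fish at 37.5 nM the runs, whose values are given above, did not overlap either, as for 5.04% of all genes, and PER2 was higher in the high run by 0.72 ± 0.18 (edgeR adjusted p = 0.0463; 0.62% of genes called higher and 1.21% in either direction). This call was lost on leaving out any of 7 of the 9 fish, at 0.62 to 0.81 and an adjusted p of up to 0.147. At 3.75 nM the runs overlapped for PER2 and the difference was -0.14 ± 0.17 (adjusted p = 0.637; 16.8% of genes called).

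Levels of the cell type marker lists are set out by run here, as a description without a test. The 5 measured of 7 listed dermal fibroblast genes (col1a1a, COL1A2, DCN, LUM and COL5A1, none at 0) summed to 5198 to 17400 CPM in the high and 1924 to 7261 CPM in the low run of the 3-year fish. They summed to 2465 to 28607 CPM in the high and 877 to 9327 CPM in the low run of the 1-year fish at 37.5 nM, and to 7805 to 25624 CPM in the high and 1940 to 10332 CPM in the low run at 3.75 nM. The medians were 8346 CPM in the high and 2708 CPM in the low run at 3 years, 25670 and 1405 CPM in the high and low run at 1 year and 37.5 nM, and 18734 and 5779 CPM in the high and low run at 3.75 nM, so the high run was above the low run in each group, while the single fish overlapped. The fibroblast sums rest mostly on col1a1a and COL1A2 (means 5015 and 4903 CPM). With the fibroblast genes weighed alike, the mean log2 CPM was 9.71 in the high and 8.90 in the low run at 3 years. It was 10.37 and 8.20 in the high and low run at 1 year and 37.5 nM, and 10.28 and 9.13 at 3.75 nM. Keratinocyte genes at 3.75 nM summed to 23664 to 31674 CPM in the high and 41451 to 52855 CPM in the low run, with no overlap. The medians of their sums were close at 3 years (36654 CPM in the high and 36583 CPM in the low run). They were 33493 CPM in the high and 37866 CPM in the low run of the 1-year fish at 37.5 nM. These sums weigh krt5 most (mean 27747 CPM). The mean log2 CPM of the keratinocyte list, which weighs its genes alike, was 9.42 in the high and 8.92 in the low run at 3 years. It was 9.03 and 9.14 in the high and low run at 1 year and 37.5 nM, and 8.78 and 9.45 at 3.75 nM. Marker lists of scale bone, erythrocytes and melanophores had a higher mean log2 CPM in the high run of each group. That of nerve and Schwann cells was higher in the high run of the 1-year groups and lower at 3 years. Muscle genes had a median of 4639 CPM in the high and 16997 CPM in the low run at 3 years, 5529 CPM in the high and 5024 CPM in the low run at 1 year and 37.5 nM, and 3683 CPM in the high and 8014 CPM in the low run at 3.75 nM. The part of these lists in the run differences was not tested.

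PER3 in the 1-year fish at 37.5 nM lay the other way. Its levels were 21.8, 34.8, 33.2, 26.1 and 26.8 CPM in the high run, against 59.5, 53.5, 51.6 and 29.9 CPM in the low run. Replicates 1, 2 and 3 of the low run stood above the whole high run and replicate 4 within it, and the difference of -0.77 ± 0.26 did not pass (edgeR adjusted p = 0.104). In the same fish the PER1 minor copy had 5.34, 5.72, 6.44, 6.79 and 4.93 CPM in the high run, against 3.05, 5.91, 1.02 and 2.70 CPM in the low run (0.88 ± 0.37, adjusted p = 0.178), with 1 low-run fish, replicate 2, inside the range of the high run.

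The PER1 major copy at 3.75 nM showed 1 fish against its run. The high run had 81.7, 32.1, 31.3, 25.4 and 32.1 CPM, against 54.6, 63.5, 57.5 and 56.0 CPM in the low run. Replicate 5, at 81.7 CPM, was above all the others, and the other 4 high-run fish were below the low run. With all fish the difference was -0.51 ± 0.28 and did not pass (edgeR adjusted p = 0.207). Without replicate 5, which is singled out here because of its level, it was -0.95 (adjusted p = 0.00304, with 22.3% of all genes called), which restates that observation and is no independent test. The same fish had the highest PER3 level of the series (83.7 CPM) and the lowest PER2 (81.6 CPM) and PER1 minor copy (4.01 CPM) levels of its group.

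Pooled over the groups, the fish-to-fish spread was widest for the PER1 minor copy and narrowest for PER2. This order did not hold in the single groups: the SD of log2 CPM was lowest for the PER1 major copy at 3 years (0.36) and in the 1-year fish at 37.5 nM (0.40) and for PER3 at 3.75 nM (0.29), where it was highest for the PER1 major copy (0.58). The pooled SD of log2 CPM within groups was 0.66 for the PER1 minor copy, 0.46 for the PER1 major copy, 0.44 for PER3 and 0.39 for PER2. Against the 1000 genes nearest in mean level, these lay at the 76.1, 72.7, 72.9 and 65.0 percentiles. Within group and run the SD was 0.57 for the PER1 minor copy, 0.41 for the PER1 major copy, 0.40 for PER3 and 0.26 for PER2. The share of the variance among the 26 fish that lay between the 3 groups was 77.7% for the PER1 major copy, 64.5% for PER3, 51.8% for the PER1 minor copy and 33.6% for PER2. With the runs as further classes the shares were 84.8% for the PER1 major copy, 74.4% for PER3, 68.6% for the PER1 minor copy and 73.3% for PER2. Such a share cannot fall when classes are added, and the shares of other genes were not taken.

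The Period genes formed a pair of couples across the 26 fish once the group means had been taken off. The PER1 minor copy and PER2 went together (Pearson's r = 0.78, permutation p = 4e-05, adjusted p = 4e-04 over 10 relations; Spearman's rho = 0.59, permutation p = 0.00404). The PER1 major copy and PER3 also went together (r = 0.63, permutation p = 0.00024, adjusted p = 0.0012; rho = 0.62, permutation p = 0.00073). Each couple was also taken without the 2 fish farthest from the median of its first gene. Then r was 0.67 for the PER1 minor copy with PER2 and 0.68 for the PER1 major copy with PER3. For the PER1 minor copy with PER2 rho was then 0.49 and did not pass (permutation p = 0.0326, adjusted p = 0.103). The PER1 major copy with PER3 had a rho of 0.66 (permutation p = 0.00067, adjusted p = 0.0067). The 4 pairs across the couples had r between -0.31 and -0.18 and did not pass (adjusted p = 0.222 to 0.450). In the low run all 4 had the other sign, with r from 0.14 to 0.40. The PER1 minor copy with PER3 also had 0.15 without the 2 farthest fish.

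Of these genes PER2 passed the test between the runs averaged over the groups. The couples were therefore also taken with the mean of each group and run removed and permutations within group and run. This alternative was chosen after seeing the data. The PER1 minor copy with PER2 then had r = 0.68 (permutation p = 0.00554, adjusted p = 0.0277), and the PER1 major copy with PER3 had r = 0.65 (permutation p = 0.00427, adjusted p = 0.0277). Within a single run neither couple passed the adjusted test. For the PER1 minor copy and PER2, r was 0.63 over the 14 fish of the high run (permutation p = 0.173) and 0.75 over the 12 of the low run (permutation p = 0.0232, adjusted p = 0.232). Spearman's rho for them was 0.24 in the high run (permutation p = 0.441) and 0.84 in the low run (permutation p = 0.00994, adjusted p = 0.0994). For the PER1 major copy and PER3, r was 0.58 in the high run (permutation p = 0.0944) and 0.87 in the low run (permutation p = 0.0496, adjusted p = 0.248). Their rho was 0.38 in the high run (permutation p = 0.177) and 0.66 in the low run (permutation p = 0.0574). The BMAL1 copy ENSDARG00000006791 encodes the activator on which Period proteins act. It had r = -0.48 with PER2 (permutation p = 0.0177, adjusted p = 0.059) and -0.45 with the PER1 minor copy (adjusted p = 0.0725). Its r was 0.34 with the PER1 major copy and 0.29 with PER3 (permutation test, adjusted p = 0.216 and 0.222). None of these passed.

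**Figure D3:**
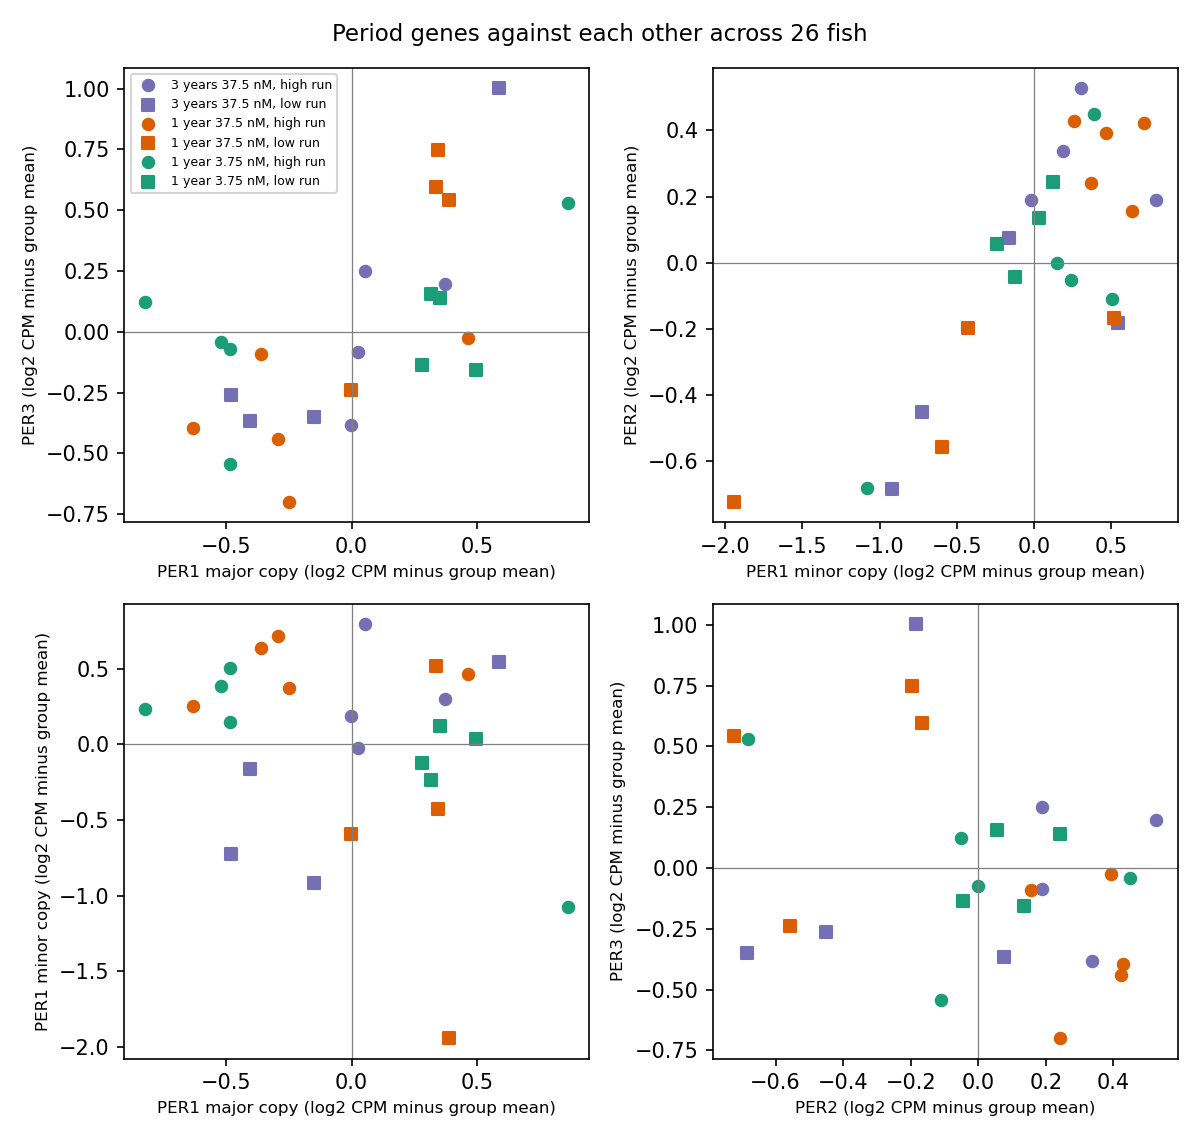
Log2 CPM minus the group mean of 1 Period gene against another, with 1 point per fish (circles: high run; squares: low run). PER3 with the PER1 major copy and PER2 with the PER1 minor copy go together (r = 0.63 and 0.78), while the lower panels show no such line (r = -0.27 for the PER1 copies and -0.31 for PER3 with PER2).

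Likeness over the 26 fish (Pearson's r of log2 CPM with group means removed, among 14065 genes, with no test) named different genes for each Period gene, apart from NR1D2. Run means were not removed here, so differences between the runs enter these values. NR1D2 (ENSDARG00000009594), which encodes a REV-ERB nuclear receptor that represses BMAL1, was the most like PER3 (r = 0.77) and the third most like the PER1 major copy (0.76). For the PER1 major copy the others were zfp91 (0.78), C10H17orf49 (0.77), ZNF395 (0.75) and PHF6 (0.75), and the most opposite were NDEL1 (-0.75), MAPK6 (-0.75) and mief2 (-0.74). Without replicate 5 of the 3.75 nM fish, NR1D2 kept 0.76 with the PER1 major copy. The values of zfp91, C10H17orf49, ZNF395 and PHF6 were then 0.70 to 0.72. For PER3 the others were mrtfab (0.75), camk2g2 (0.74), HOXA3 (0.74) and ADAT3 (0.73), and the most opposite GNAO1 (-0.71), CREB5 (-0.71) and SKP1 (-0.67).

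The PER1 minor copy was most like tamalin (0.79), snrkb and CLN8 (0.78 each), PER2 itself (0.78) and pik3r3a (0.78), and most opposite to tnfsf11 (-0.78), EHMT1 (-0.72) and GRAP2 (-0.71). PER2 was most like EVA1C (0.86), HIVEP2 (0.85), IFRD1, fxyd5 and lonrf1 (0.84 each), and most opposite to ABHD14A, ZMYND8 (-0.80 each) and ASRGL1 (-0.78). PER2 ranked 4 of 14065 for the PER1 minor copy and the PER1 minor copy 14 for PER2, while PER3 ranked 78 for the PER1 major copy and the PER1 major copy 29 for PER3.

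Around the Period genes, 42 of 43 other clock genes could be tested. Between the concentrations 5 of them were called lower and 6 higher at 37.5 nM, against 3% and 1.28% of all genes tested, and 31 did not pass, with a median log2 fold change of 0.16 against -0.01 over all genes. The 5 lower included NR1D1, a further REV-ERB receptor (2.36 ± 0.871 CPM at 37.5 nM and 10.4 ± 5.86 CPM at 3.75 nM, -2.13 ± 0.34, edgeR adjusted p = 0.0176). The others were the PAR bZIP output factors dbpa (-1.41) and dbpb (-0.63), the CLOCK-BMAL repressor ciartb (-1.17) and NR1D2 (-0.70).

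The 6 higher included the BMAL1 copy ENSDARG00000035732 (11.9 ± 3.18 CPM at 37.5 nM and 6.39 ± 1.59 CPM at 3.75 nM, 0.89 ± 0.18, edgeR adjusted p = 0.031) and the cryptochromes cry3b (0.90) and cry3a (0.60). The others were the ROR family activator rorcb (1.32), hlfa (0.69), of the PAR bZIP family, and nfil3-5 (1.14), of the E4BP4 repressor family. The other BMAL1 copy had 0.32 ± 0.21 and did not pass. These counts were 0 and 0 in the high run alone and without replicate 7 of the 37.5 nM fish or replicate 1 of the 3.75 nM fish, and 10 lower and 9 higher in the low run alone. In the low run alone 26.7% of all genes tested were called, and in the other settings named here 0.

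Between the ages the 42 had a median log2 fold change of -0.24, against 0.03 over all genes. Of them 1 was called lower in the 3-year fish and none higher, against 0.597% and 0.676% of all genes tested. This was tefa, a PAR bZIP factor (219.9 ± 54.2 CPM in the 3-year and 324.1 ± 31.7 CPM in the 1-year fish, -0.56 ± 0.13, edgeR adjusted p = 0.044); leaving out single fish gave 0 to 2 such genes. None was called with library totals, with the muscle term or in either run alone, and 3 were called with the run term and with DESeq2. Over all genes the run term called 1.87% and DESeq2 called 1076 genes, against 241 in the main comparison. In the high run alone 0.0995% of all genes were called, and in the low run alone 0.179%. At an average over the groups, 7 of the 42 were called lower and 7 higher in the high run. Of all genes tested 7.93% were called lower there and 8.97% higher. Among the bHLH repressors and ciart, BHLHE41 (1.15 ± 0.22) and ciartb (0.78) were higher and BHLHE40 (-0.77) lower. The other lower genes were the BMAL1 copy ENSDARG00000006791 (-0.48), bmal2 (-0.53), NR1D1 (-0.65), rorca (-0.74), rorcb (-0.75) and HLF (-0.63). The other higher genes were the CRY1 copy ENSDARG00000011583 (0.74), cry3b (0.51), the kinase gene CSNK1D (0.53), tefb (0.68) and nfil3-6 (0.77).

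Within single groups, high against low run, cry5, of the photolyase and cryptochrome family, was called higher in the 3-year fish (1.19), where 0.644% of all genes tested were called higher. At 3.75 nM the CRY1 copy ENSDARG00000011583 (1.13), tefb (0.84) and BHLHE41 (1.33) were called higher and NR1D1 (-1.27) and HLF (-1.11) lower, where 8.48% of all genes tested were called higher and 8.32% lower. The most abundant genes of the roles, by CPM, were CLOCK ENSDARG00000003631 (20.4) among activators, cry3a (350.0) among cryptochromes and csnk1da (232.2) among kinases and ligases. They were nr1d2a (223.3) among orphan receptors, tefa, with the values given above, among the PAR bZIP and E4BP4 genes and BHLHE40 (163.4) among the bHLH repressors. Of these, CLOCK, csnk1da, nr1d2a and BHLHE40 passed in neither the age nor the concentration comparison.

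**Figure D4:**
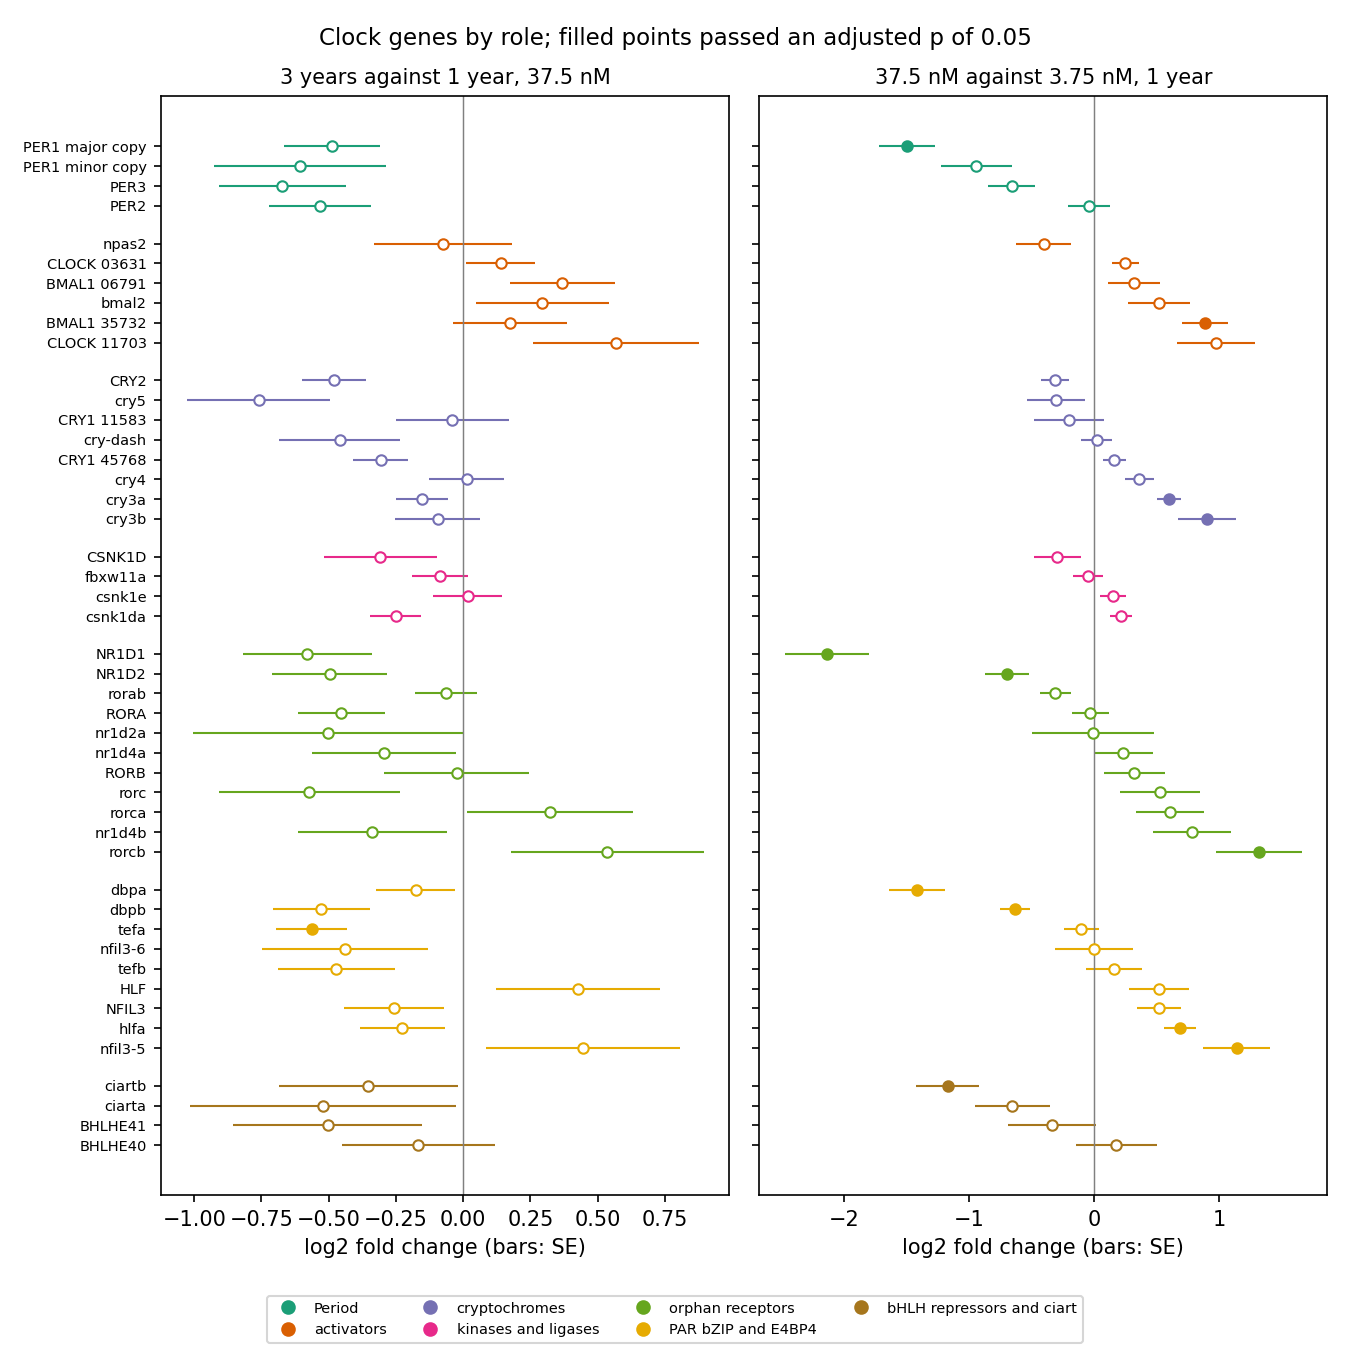
Log2 fold changes (bars: SE) of the Period genes and 42 other clock genes by role, for 3 years against 1 year at 37.5 nM and 37.5 nM against 3.75 nM at 1 year; filled points passed an adjusted p of 0.05, and gene copies with 1 symbol carry the last digits of their identifiers. At left 1 gene, tefa (-0.56), is filled; at right 12 are, the PER1 major copy (-1.49) among 6 on the lower side.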

How the data were processed

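Libraries from zebrafish skin RNA were made with Illumina's TruSeq RNA kit, version v2, according to the labels' protocols. The submitters' processing notes name CASAVA 1.8.2, STAR 2.4.1d, featureCounts 1.4.6-p4 and the build GRCz10, and no role or setting is given in the sources used here. Whole-number counts per Ensembl gene, not normalized, were deposited for the 37.5 nM fish (17) and, separately, for the 3.75 nM fish (9). The values that the authors deposited as RPKM were not used as levels, because their divisor was not constant between libraries where it was checked. This was done for replicates 1 and 2 of the 1-year fish at 37.5 nM. Over 6103 genes of 300 or more counts in every fish, the ratio of their divisors repeated every 50 rows. The other libraries were not checked in this way. The deposited RPKM gave only approximate gene lengths.

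Counts were filtered with filterByExpr, normalized by TMM and tested with edgeR 4.0.16 (robust quasi-likelihood, R 4.3.3), with Benjamini-Hochberg adjustment over all genes tested and a threshold of 0.05. The SE of an edgeR log2 fold change is its absolute size divided by the square root of the F statistic of its test. The 95% intervals use this SE. Each of the age and concentration comparisons was fitted on its own fish. Run differences came from a fit of the 26 fish with 1 mean per group and run. CPM is from that fit, and log2 CPM has a prior count of 2. Correlations used log2 CPM with group means removed and 100000 permutations within groups; an added alternative removed group and run means. Alternatives were RLE size factors, library totals, no filter, a run term, a muscle marker term, single runs, a fit of all 26 fish, DESeq2 1.42.0 and leaving out each fish. Counts of all pairs of libraries, within and between groups, differed by more than sampling noise (lowest chi-square per degree of freedom 46.3). Fish are separate animals, so n is the number of fish.

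On simulated counts 62% of genes changed 2-fold and 93% of those changed 4-fold were recovered in the age comparison (18755 genes). The shares were 70% and 93% in the concentration comparison (18622 genes) and 87% and 97% between the runs (20290 genes). Of the genes called, 3.1% were false in the age, 3.6% in the concentration and 7.1% in the run comparison. The simulation drew each gene independently, with no effect shared between genes. Genes to be changed were taken from those with a mean of 2 CPM or more, and no other difference between groups or runs was planted. These shares therefore need not hold in the real comparisons. Symbols matched 26269 of 32105 identifiers. The genes and lists were chosen with earlier results of these data known. The text names the 4 genes, the 5 genes most like and the 3 most opposite to each of them, each clock gene called in a comparison, and the most abundant clock gene of each role. Some clock genes of the list are not reported here, and no sequences were used.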

Additional observations from a re-analysis of the deposited data

Results flagged for a closer look

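Of 36 sets of fish looked at for a fish far from the others, 9 held one. Chance gives about 1 in 20 for independent sets of normally distributed values, but these sets overlap (each group and its runs, for 4 genes), the values are CPM, and 4 of the 9 come from 1 fish. The PER1 major copy stood at 81.7 CPM in replicate 5 of the 1-year fish at 3.75 nM, the highest of the 5 fish of its run (next 32.1 CPM). The same fish was lowest of its run and of the 9 fish of its group for the PER1 minor copy, at 4.01 CPM (next 9.49 and 7.24 CPM), and lowest of its group for PER2, at 81.6 CPM (next 121.3 CPM). In this fish the dermal fibroblast genes summed to 25624 CPM and the keratinocyte genes to 23664 CPM, the highest and the lowest sum of its group. Replicates 6 and 8 of that group had 18734 and 21526 CPM for the fibroblast and 23680 and 26583 CPM for the keratinocyte genes. Their PER1 major copy levels were 32.1 and 25.4 CPM. The part of these lists in the Period levels was not tested.

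PER3 stood at 44.8 CPM in replicate 1 of the 3-year fish, the highest of the 8 fish of its group (next 26.6 CPM) and of the 4 of the low run (next 18.6 CPM). The PER1 minor copy stood at 1.02 CPM in replicate 3 of the 1-year fish at 37.5 nM, the lowest of 9 (next 2.70 CPM), a value that rests on 30 counts. The PER1 major copy stood at 15.5 CPM in replicate 8 of the 3-year fish, the highest of the 4 of the high run (next 12.4 CPM). It stood at 16.6 CPM in replicate 4 of the 1-year fish at 37.5 nM, the lowest of the 4 of the low run (next 21.0 CPM).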

How the results depend on the processing

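Of 184 values of a Period gene under a setting other than leaving out a fish, 166 kept their direction and their side of the threshold. So did 520 of 556 with 1 fish left out. Causes of the exceptions were not tested. Most of the 184 and 556 values belong to results that had not been called. The call of the PER1 major copy between the concentrations was kept in 8 of 9 other settings and for 16 of 18 left-out fish. That of PER2 between the runs was kept in 5 of 5 and 26 of 26. Its call between the runs in the 1-year fish at 37.5 nM was kept in 3 of 5 and 2 of 9. Between the concentrations, the PER1 major copy did not pass in the high run (-1.47) and ranged from -1.59 to -1.40 over left-out fish. For the PER1 minor copy the call was made with the run as a term (-0.998), with all 26 fish (-0.94), in the low run (-1.39) and with DESeq2 (-0.96), and ranged from -1.06 to -0.83. PER3 passed with RLE size factors (-0.67), the run term (-0.71) and DESeq2 (-0.67), and ranged from -0.77 to -0.58. PER2 passed in the low run (-0.56), had 0.29 in the high run and ranged from -0.14 to 0.019. Between the ages, PER2 passed with the run term (-0.48) and PER3 ranged from -0.87 to -0.55.

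For high against low run, left-out fish gave -0.42 to -0.18 for the PER1 major copy and 0.43 to 0.70 for the PER1 minor copy. PER3 had -0.28 to 0.32 in the 3-year fish and -0.13 to 0.15 at 3.75 nM, with -2.6e-04 by library totals. Of the differences between runs, that of the concentrations ranged from -0.14 to 0.49 for the PER1 major copy, with -0.012 by library totals, and from 0.73 to 1.01 for PER2, with 0.85 by DESeq2. That of the ages ranged from -0.81 to 0.030 for the PER1 minor copy and from -0.26 to 0.049 for PER2, with 0.025 by library totals.

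In the low run, r had the other sign for the PER1 copies (0.35), the PER1 major copy with PER2 (0.14) and the PER1 minor copy with PER3 (0.40). It also had the other sign for PER2 with PER3 (0.32), and for BMAL1 with the PER1 major copy (-0.27) and PER3 (-0.33). Without the 2 farthest fish the PER1 minor copy with PER3 had 0.15. Neither the PER1 major copy with PER3 (0.87 and 0.58) nor the PER1 minor copy with PER2 (0.75 and 0.63) passed in the low and high run. With group and run means removed, also chosen after seeing the data, the PER1 minor copy with PER3 had 0.13 and PER2 with PER3 0.015. Leaving out replicate 5 of the 3.75 nM fish, a choice made after seeing the data, PER2 with BMAL1 passed (-0.50). Genes called numbered 241 between the ages (64 to 712 over left-out fish, 19 to 1076 over other settings) and 804 between the concentrations (0 to 1661 and 0 to 5024). They numbered 3462 between the runs (2569 to 4553), and 13 and 470 for the run differences of age (0 to 147) and concentration (29 to 975). Counts were lowest for the PER1 minor copy, with a Poisson counting error of up to 18.3%. No paired analysis was possible because fish numbers are not shared between groups.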
